A study of Homo sapiens with 6 samples.

Results

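These data hold 128 genes whose RNA was lower after quisinostat than after DMSO in each of 3 lines of bladder cancer cells (RT4, RT112, SW780). They were selected on the measured values themselves, from the deposited table of FPKM (fragment counts scaled to transcript length and library size), which has 10515 rows at 10066 assembled loci. A locus was a member if it had a gene name, an FPKM above 0 in all 6 libraries and a log2 ratio of quisinostat over DMSO under -0.5 in every line. Every member thus kept at most 70.7% of its DMSO level. Of 8525 named loci above 0 in all 6 libraries, 147 passed (1.72%). The 19 loci that carry the name HDGF, CA9, EIF4B or PABPC4, or a name that begins with RPL, RPS, MRP, SLC, ZNF, SRSF, HNRNP or SNRP, were left out, and 128 remained. A further 25 loci without a gene name met the same limit and were not counted.

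The study asked how quisinostat acts together with an inhibitor of the FGFR3 kinase, and RNA was sequenced from cells with and without quisinostat. RT4 and RT112 cells carry an FGFR3-TACC3 fusion and SW780 cells an FGFR3-BAIBP2L1 fusion, in DMSO and drug libraries alike. Quisinostat was given for 2 days at 50 nM to RT4, 10 nM to RT112 and 25 nM to SW780 cells, so the dose changes with the line and their effects cannot be told apart. Each line gave 1 library with DMSO and 1 with quisinostat, from polyadenylated RNA. A difference within a line therefore has no replicate check, no p-value is given, and the number of reads behind an FPKM is unknown. The cell line entry of the SW780 quisinostat library reads SW781 in 1 label field and SW780 in the title.

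Histone deacetylases take acetyl groups off lysines of histones and of many other proteins. Quisinostat is a hydroxamate inhibitor of these enzymes that acts on several members of the family at nanomolar doses. Histones gain acetyl groups when the enzymes are blocked, and the levels of many transcripts go up while those of others go down. Urothelial cancer arises in the lining of the bladder, an epithelium sealed by tight junctions.

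Markers of such an epithelium were present in all 3 lines. Each of the 11 markers of bladder epithelium was in the table, with a summed level of 1124 to 1732 FPKM in the DMSO and 923 to 1622 FPKM in the quisinostat libraries. None of the 4 leukocyte and 3 endothelial markers had a locus in the table, and 3 of 6 fibroblast markers did (LUM, COL1A1 and COL3A1), with a summed level of 1.16 to 135 FPKM with DMSO and 10.2 to 134.5 FPKM with quisinostat. UPK3A was listed at 0 in both RT112 libraries and LUM in the RT4 DMSO library. The part of any other cell type in the results was not tested. The FPKM of all loci summed to between 237363 and 263856 per library.

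By selection every member is lower in every line, and the size of the difference is the description. Ratios below are log2 values of quisinostat over DMSO, and where a gene has 3 of them they stand in the order RT4, RT112, SW780. The median log2 ratio of the members was -0.91 (RT4), -0.81 (RT112) and -0.88 (SW780), beside 0.07, 0.06 and 0.03 over all 8525 loci. A typical member thus kept 53.4%, 57.0% and 54.5% of its DMSO level. In one line taken alone a ratio under -0.5 was common, at 26.3% (RT4), 13.2% (RT112) and 18.2% (SW780) of the loci. Reaching -1, which is a loss of at least 50.0% of the level, set the members apart from one another. In all 3 lines 13 did so, in a pair of lines 36, in a single line 36 and in none 43. Of all loci, 0.188% were under -1 in all 3 lines. In each line alone 13.8% (RT4), 3.05% (RT112) and 6.76% (SW780) of all loci were. The members were already under -0.5 in every line, so their counts follow in part from the rule. In bulk RNA, fewer cells of a kind and less RNA per cell cannot be told apart.

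The highest quisinostat level of a member was below the lowest DMSO level of any line at 65 of 128 members (50.8%), against 4.46% of all loci, and this share follows in part from the rule. The other members differ so much between lines that the ranges overlap. DMSO levels of the most and the least abundant line differed more than 2-fold at 58 members (45.3%) and at 46.7% of all loci. The lines kept their order from DMSO to quisinostat at 70 members (54.7%), against 35% of all loci. The rule narrows the range of the 3 ratios, so this share too follows in part from it. The deepest of the 3 ratios was in RT4 cells for 55 members, in SW780 cells for 43 and in RT112 cells for 30. This was not counted over all loci, where ratios under -1 had the same order of lines. They were found at 13.8% (RT4), 6.76% (SW780) and 3.05% (RT112) of all loci.

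**Figure D1:**
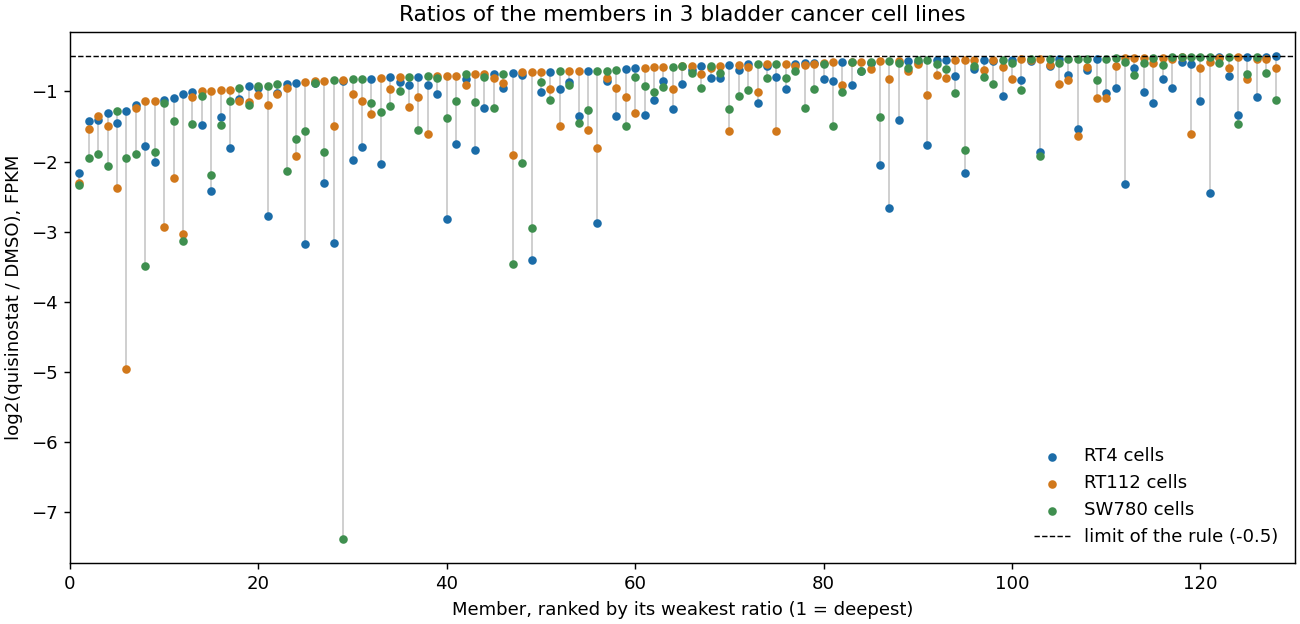
Log2 ratio of quisinostat over DMSO (FPKM) of the 128 members on the vertical axis, ranked from left to right by the weakest of the 3 ratios, with 1 point per cell line and a grey bar from the deepest to the weakest. All points lie under the dashed limit of -0.5, a single gene (KLHDC7A) is under -2 in all 3 lines, and PHF11 in SW780 cells reaches -7.37.

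KLHDC7A, a kelch domain protein with no role stated here, was the member whose weakest ratio was lowest. It went from 5.85 to 1.30 FPKM (RT4), 2.0 to 0.406 (RT112) and 3.25 to 0.644 (SW780). The levels left were 22.3, 20.3 and 19.8% of DMSO, and every quisinostat library was below every DMSO library. The 3 ratios, -2.17, -2.30 and -2.33, were nearly equal although the doses were not. The gene is on chromosome 1 at 18480982-18486126, plus strand (GENCODE 29, GRCh38). Its 250 bases before the RefSeq start, chr1:18480680-18480929 on the plus strand of GRCh38.p14, are shown because no other member was under -2 in all 3 lines. Its GC box (GGGCGG) is in capitals.

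KLHDC7A upstream: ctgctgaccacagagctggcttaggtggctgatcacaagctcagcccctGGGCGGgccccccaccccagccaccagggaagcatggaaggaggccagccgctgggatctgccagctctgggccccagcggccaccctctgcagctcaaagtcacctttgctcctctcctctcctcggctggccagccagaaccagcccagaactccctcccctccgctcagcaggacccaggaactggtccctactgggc

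The 12 members with the lowest weakest ratio include the epithelial surface or secreted products PRSS22, SPRR3, CDH26, S100P and CST4/CST1. The next after KLHDC7A was SP6. SP6, a zinc finger transcription factor of the SP family known from tooth and skin epithelium, had ratios of -1.42, -1.54 and -1.95. It went from 9.84 to 3.69 FPKM (RT4), 6.35 to 2.18 (RT112) and 4.87 to 1.26 (SW780), with no overlap between treatments. S100P, a small calcium-binding protein, was among the most abundant members and went from 172 to 42.8 FPKM (RT4), 458 to 209 (RT112) and 317 to 86.8 (SW780). RT112 cells kept the most of it, so that their quisinostat level was above the DMSO level of RT4 cells. SPRR3, a small proline-rich protein of the squamous cell envelope, went from 2.16 to 0.943 FPKM (RT4), 9.37 to 3.98 (RT112) and 4.68 to 1.26 (SW780). The SPRR3 level of RT112 cells with quisinostat was above that of RT4 cells with DMSO. S100P and SPRR3 are of the few members whose promoters hold a TATA box (6 of 89 promoters searched, or 6.74%, against 5.30% of the 6570 promoters of all loci matched). The box, in capitals, lies 28 bases before the RefSeq start of S100P (chr4:6693838-6693867, plus strand, GRCh38.p14) and 29 bases before that of SPRR3 (chr1:153001708-153001737, plus strand). The GENCODE 29 span of S100P starts further upstream, at 6693069, so the S100P box lies within that span and the annotations disagree on the start.

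S100P: atgaggctgcctTATAAAgcaccaagaggc
SPRR3: gctcattttctaTATAAAtaccagctaaca

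The cystatins S and SN, secreted inhibitors of cysteine proteases, share the locus CST4/CST1. It went from 519.6 to 238 FPKM (RT4), 4.88 to 0.639 (RT112) and 21.7 to 9.70 (SW780), a range of DMSO levels over 100-fold, yet lower with quisinostat in each. CST2, the next cystatin on chromosome 20 and 72.5 kb away, went from 20.8 to 7.19 FPKM (RT4), 1.67 to 0.539 (RT112) and 0.723 to 0.499 (SW780). The ratios were -1.13, -2.93 and -1.16 for CST4/CST1 and -1.53, -1.63 and -0.54 for CST2, so the gap between these neighbours was widest in RT112 cells. CST3, a widely expressed cystatin, was no member, with -0.42, 0.52 and -0.01. Reads of these similar genes may be shared between them, so the split is uncertain.

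Other members of the top 12 were less abundant. PRSS22, a serine protease, went from 1.17 to 0.482 FPKM (RT4), 1.85 to 0.0594 (RT112) and 0.851 to 0.221 (SW780), and its ratio in RT112 cells of -4.96 rests on a quisinostat level of 0.0594 FPKM. CDH26, a cadherin, went from 10.2 to 2.97 FPKM (RT4), 0.343 to 0.156 (RT112) and 0.334 to 0.0297 (SW780), so it was present mainly in RT4 cells. AP1M1, a subunit of the clathrin adaptor AP-1, had DMSO levels of 3.32, 2.86 and 1.8 FPKM in RT4, RT112 and SW780 cells and quisinostat levels of 1.22, 0.549 and 0.742. The levels of ACYP2, an acylphosphatase, were 2.62, 5.06 and 4.01 FPKM with DMSO and 1.06, 1.79 and 0.958 with quisinostat in the same order. For AL391427.1, an antisense transcript in GENCODE, they were 2.18, 1.36 and 4.29 and 0.822, 0.534 and 1.16. No treatment overlap occurred at AP1M1, ACYP2 or AL391427.1.

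The members were grouped by known role after their values had been seen, and members named below outside the fixed rule were chosen in the same way. The medians by role were close to one another in most cases. The 13 epithelial, secretory, junction and cytoskeleton genes had the deepest medians of the named roles, -1.45 (RT4), -1.14 (RT112) and -1.83 (SW780). This group, called epithelial for short below, also holds secretory and cytoskeleton genes such as AP1M1, TRIP11 and MPRIP. The 13 genes of splicing and mRNA turnover had the shallowest in RT4 and RT112 cells, -0.79 and -0.65. In SW780 cells the shallowest median, -0.71, was that of the 16 genes of the nucleolus, ribosome assembly and RNA polymerases I and III.

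**Figure D2:**
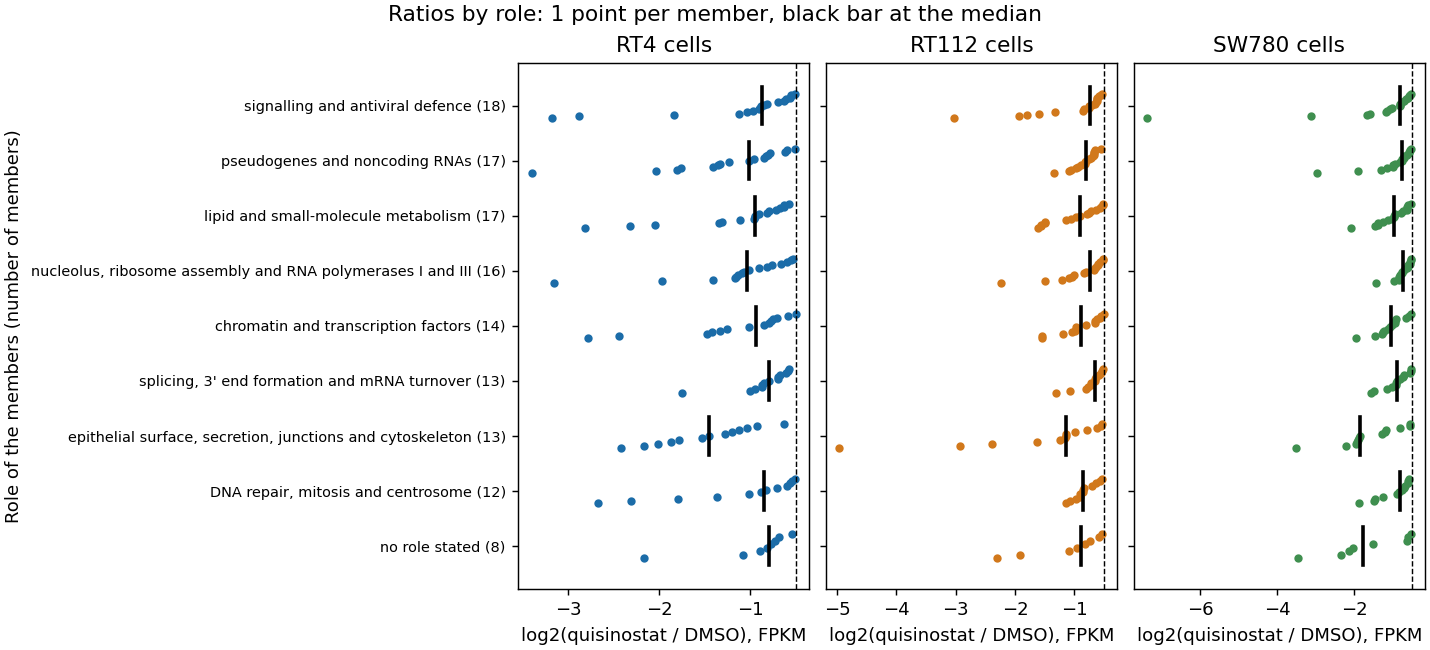
Log2 ratio of quisinostat over DMSO (FPKM, horizontal axis) of each member by role, with a panel per cell line, 1 point per member, a black bar at the median and a dashed line at the limit of -0.5. The epithelial, secretory, junction and cytoskeleton group has its median at -1.45, -1.14 and -1.83, while most other groups lie between the limit and -1.04.

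The nucleolus builds ribosomes from ribosomal RNA made by RNA polymerase I, with 5S and transfer RNA added by RNA polymerase III. The 16 members grouped here also hold enzymes that modify RNA or ribosomal proteins, among them NSUN4 of the mitochondrial ribosome. Of the 16, 11 had no overlap between treatments, beside 65 of all 128 members (50.8%) and 4.46% of all loci. NCL (nucleolin), a major nucleolar RNA-binding protein, was the most abundant and went from 168 to 95.5 FPKM (RT4), 186 to 120.3 (RT112) and 176 to 105 (SW780). It kept 57.0, 64.5 and 59.8% of its DMSO level, and all quisinostat values were below all DMSO values. NOP56, a core protein of the box C/D particles that guide ribosomal RNA methylation, had ratios of -0.66, -0.52 and -0.76. The locus PPRC1/NOLC1, whose second gene encodes a nucleolar phosphoprotein, went from 29.3 to 14.5 FPKM (RT4), 32.0 to 22.3 (RT112) and 25.5 to 16.9 (SW780). Both had separate ranges of DMSO and quisinostat values.

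Members include subunits of both polymerases and of the factors that place them. POLR1E, a subunit of RNA polymerase I, went from 12.1 to 6.47 FPKM (RT4), 9.32 to 4.01 (RT112) and 9.81 to 5.64 (SW780). TAF1D, part of the factor that places that polymerase on its promoter, had ratios of -1.14, -0.67 and -0.51. POLR3K, a subunit of RNA polymerase III, went from 6.34 to 3.02 FPKM (RT4), 8.90 to 5.63 (RT112) and 10.0 to 6.84 (SW780). GTF3C6, part of the TFIIIC factor that recruits RNA polymerase III, had DMSO levels of 47.2, 33.8 and 32.4 FPKM and quisinostat levels of 17.8, 22.9 and 21.5. The ranges were apart for POLR1E and GTF3C6 and overlapped for TAF1D and POLR3K.

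Enzymes that modify RNA or ribosomal proteins were also members. NSUN4, a methyltransferase of the mitochondrial ribosome's RNA, went from 6.21 to 0.696 FPKM (RT4), 2.91 to 1.03 (RT112) and 3.99 to 2.23 (SW780), and kept 11.2, 35.4 and 56.0%. The treatments did not overlap, and the ratio was deepest in RT4 cells. PUS7, a pseudouridine synthase, had ratios of -1.16, -1.01 and -0.62. PRMT3, an arginine methyltransferase of a small-subunit ribosomal protein, had -0.60, -0.60 and -0.97. GNL3L, a nucleolar GTPase, went from 7.94 to 3.72 FPKM (RT4), 4.82 to 1.03 (RT112) and 4.29 to 1.60 (SW780) with no overlap. RRP1, TRMT2B and DNAJC2 complete the protein-coding part, with weakest ratios of -0.52, -0.54 and -0.53. The snoRNA host genes SNHG1 and SNHG15, spliced noncoding RNAs whose introns give small nucleolar RNAs, had -0.56, -0.81 and -0.69 (SNHG1) and -1.97, -1.03 and -0.82 (SNHG15).

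Lists of the pathways around these genes put the members in context. Of 44 measured loci of the MYC network and its known targets, 5 were members (11.4%, against 1.72% of all loci): NCL, NOP56, PPRC1/NOLC1, TAF1D and PUS7. The median ratio of the 44 was -0.60, -0.38 and -0.29, and 24, 20 and 16 of them were under -0.5 in RT4, RT112 and SW780 cells, beside 26.3, 13.2 and 18.2% of all loci. The RNA modification list gave 3 of 26 (11.5%), which were NSUN4, PRMT3 and PUS7. The snoRNA hosts and TOP mRNA genes outside the ribosome gave 3 of 33 (9.09%), namely SNHG1, SNHG15 and TAF1D. These lists were written with earlier results of the same data known and overlap one another, so their counts are descriptions.

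Splicing removes introns, and a second set of factors cleaves, exports and finally degrades the message. The median DMSO level of the 13 members here was 20.3 FPKM, and single libraries with DMSO ranged from 2.30 (PAN3) to 90.5 FPKM (PRPF8). PRPF8, the protein at the core of the spliceosome, went from 90.5 to 46.7 FPKM (RT4), 53.8 to 37.2 (RT112) and 75.8 to 53.0 (SW780). All DMSO values were above all quisinostat values. RT112 and SW780 cells kept it at 69.1 and 69.9%, just inside the limit, and RT4 cells at 51.6%. PNN (pinin), a nuclear speckle protein, went from 58.7 to 32.2 FPKM (RT4), 49.5 to 28.4 (RT112) and 44.9 to 22.5 (SW780), with no overlap and ratios of -0.87, -0.80 and -1.0. SON, a large speckle protein that shares its locus with MIR6501, had -0.59, -0.51 and -0.52, one of the 5 narrowest ranges.

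Several other steps of mRNA handling were represented. SNRNP25, of the minor spliceosome, had -0.87, -0.71 and -0.91, LUC7L, tied to the U1 particle, -0.70, -0.64 and -0.73, and the kinase PRPF4B -0.57, -0.55 and -0.90. BCLAF1 and SREK1, both arginine- and serine-rich nuclear proteins, had -0.70, -0.65 and -0.54 (BCLAF1) and -0.85, -0.58 and -1.49 (SREK1). NUDT21, which sets where messages are cleaved at the 3' end, went from 29.2 to 19.2 FPKM (RT4), 52.0 to 33.3 (RT112) and 44.1 to 27.0 (SW780). MBNL1, a regulator of alternative splicing, went from 7.80 to 4.89 FPKM (RT4), 21.8 to 8.84 (RT112) and 21.9 to 12.6 (SW780). TOB1, which brings deadenylases to mRNA and restrains proliferation, went from 50.9 to 29.4 FPKM (RT4), 36.0 to 17.0 (RT112) and 36.9 to 12.6 (SW780), without overlap. PAN3, a deadenylase subunit, had -1.0, -0.72 and -0.87, and PYM1, which recycles exon junction complexes, -1.75, -0.78 and -1.13. NUDT21 and MBNL1 overlapped between treatments, since RT4 cells had less with DMSO than RT112 cells had with quisinostat.

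DNA repair, chromosome segregation and centrosome copying gave 12 members, most of low abundance. BRCA2, which acts in the repair of DNA breaks by homologous recombination, went from 2.05 to 0.795 FPKM (RT4), 4.49 to 2.28 (RT112) and 3.62 to 1.30 (SW780). The RT112 level of BRCA2 with quisinostat was above the RT4 level with DMSO. LIG3, the DNA ligase of single-strand break repair and of mitochondria, went from 4.85 to 0.982 FPKM (RT4), 4.70 to 2.61 (RT112) and 4.12 to 1.14 (SW780). LIG3 had no overlap, and RT112 cells kept 55.4% and RT4 cells 20.2%. DNA2, a nuclease and helicase, had ratios of -0.51, -0.53 and -0.60, close to the limit in every line.

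At the centrosome, PLK4, the kinase that starts centriole copying, went from 3.58 to 2.36 FPKM (RT4), 3.23 to 2.09 (RT112) and 4.19 to 1.77 (SW780), without overlap. SASS6, the protein of the cartwheel that PLK4 acts with, had -0.54, -0.90 and -0.60. PCNT (pericentrin) and TUBGCP4, of the matrix and the gamma-tubulin ring that nucleate microtubules, had -1.80, -1.14 and -0.82 (PCNT) and -0.83, -0.90 and -0.76 (TUBGCP4). CENPN, a kinetochore protein, went from 7.22 to 3.91 FPKM (RT4), 12.8 to 7.12 (RT112) and 13.5 to 7.34 (SW780), and its ratios of -0.88, -0.85 and -0.88 span only 0.03. TRIP13, an ATPase of the spindle checkpoint, had -0.71, -0.58 and -0.70. CENPV went from 16.8 to 2.64 FPKM (RT4), 19.4 to 10.9 (RT112) and 9.60 to 6.47 (SW780), and RT4 cells kept 15.7% of DMSO. For CENPN and CENPV the ranges overlapped. CDK2AP1, at a locus shared with AC068768.1, had -0.56, -0.71 and -0.67.

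FAM72C, one of a set of near-identical genes on chromosome 1, went from 1.06 to 0.528 FPKM (RT4), 3.73 to 1.76 (RT112) and 2.87 to 1.04 (SW780). Its copies were not members: FAM72A had -0.57, -1.80 and 0.52, FAM72B 0.30, -0.84 and -0.71 and FAM72D 1.0, -0.74 and 0.48. Reads from these copies can be assigned to one another, so the values of FAM72C alone are uncertain. Of 42 measured loci of the cell cycle, mitosis and centrosome list, 6 were members (14.3%), and of 60 DNA replication and repair loci 3 were (5.00%). Of all loci, 1.72% met the limit in all 3 lines. In SW780 cells 28 of the 42 and 39 of the 60 were under -0.5, against 12 and 18 in RT4 and 15 and 9 in RT112 cells. Over all loci the shares were 26.3, 13.2 and 18.2% in RT4, RT112 and SW780 cells, so several of these counts are near the background.

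There were 14 members that act on chromatin or as transcription factors. CHD3, a remodelling ATPase of the NuRD complex that also holds deacetylases, went from 23.6 to 8.49 FPKM (RT4), 11.5 to 5.76 (RT112) and 16.7 to 7.96 (SW780), without overlap. NSD2, a histone methyltransferase, at a locus that also holds SCARNA22, went from 13.6 to 6.70 FPKM (RT4), 25.4 to 12.4 (RT112) and 15.3 to 8.21 (SW780), again without overlap. The histone methyltransferase ASH1L shares a locus with YY1AP1 and is the last member inside the limit. TAF1, the largest subunit of TFIID, had -2.44, -0.58 and -0.51, deepest in RT4 cells. CBX5 (HP1 alpha), a reader of methylated histone H3, had -0.80, -0.97 and -1.21. LMNB1 (lamin B1), of the nuclear lamina, went from 47.7 to 18.9 FPKM (RT4), 65.3 to 45.9 (RT112) and 66.0 to 24.0 (SW780). RT112 cells kept 70.3% of LMNB1, RT4 cells 39.6% and SW780 cells 36.3%, with no overlap. On the chromatin and general transcription factor list, 5 of 36 loci were members (13.9%), where 1.72% of all loci met the limit. In RT4, RT112 and SW780 cells 23, 8 and 16 of the 36 were under -0.5, beside 26.3, 13.2 and 18.2% of all loci.

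Among the sequence-specific factors, BHLHE41, a clock repressor also known from hypoxia, went from 26.8 to 16.4 FPKM (RT4), 28.3 to 9.73 (RT112) and 18.8 to 7.83 (SW780), with no overlap. VEGFA, the angiogenic growth factor, is the other member on the clock and hypoxia list (2 of 19 loci, or 10.5%, against 1.72% of all loci). The median ratio of that list was 0.84 (RT4), -0.29 (RT112) and 0.25 (SW780). It went from 12.2 to 8.0 FPKM (RT4), 18.2 to 6.0 (RT112) and 7.21 to 5.06 (SW780). In both genes RT112 cells had the deepest ratio, -1.54 and -1.60. MAFF, a small MAF protein, went from 12.8 to 1.87 FPKM (RT4), 15.4 to 6.71 (RT112) and 1.86 to 0.983 (SW780), and RT4 cells kept 14.6%. VEGFA and MAFF overlapped between treatments, and in both SW780 cells had the lowest DMSO level. E2F8, a repressor of the E2F family, had -0.59, -0.62 and -0.56, and BCL6, a zinc finger repressor, -0.75, -0.81 and -1.23. ATF1, of the CREB family, had -1.25, -0.97 and -0.65. The abundant chromatin proteins ANP32B and NUCKS1 had -0.78, -0.56 and -1.02 (ANP32B) and -0.85, -0.65 and -0.94 (NUCKS1).

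Lipid metabolism held some of the most abundant members. SCD, the desaturase that makes oleate, went from 272 to 107 FPKM (RT4), 665 to 406 (RT112) and 227 to 83.0 (SW780). RT112 cells had the highest level in both treatments, and their quisinostat level exceeded the DMSO levels of the other lines. ACACA, the acetyl-CoA carboxylase that commits carbon to fatty acids, went from 23.1 to 15.5 FPKM (RT4), 17.6 to 9.39 (RT112) and 25.7 to 12.8 (SW780). ACSL5, which joins long-chain fatty acids to coenzyme A, had DMSO levels of 70.0, 70.2 and 62.5 FPKM and quisinostat levels of 32.4, 31.9 and 32.4 FPKM in RT4, RT112 and SW780 cells. For ACACA and ACSL5 the treatments did not overlap.

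These 3 were the members on the list of fatty acid and cholesterol synthesis, of 33 measured (9.09%, where 1.72% of all loci met the limit). Across the list, 15 of 33 were under -0.5 (RT4), 6 (RT112) and 15 (SW780), with medians of -0.40, 0.03 and -0.46, beside shares of 26.3, 13.2 and 18.2% of all loci. FASN, the fatty acid synthase between ACACA and SCD in the pathway, had -3.67, 0.75 and -2.44 and was higher with quisinostat in RT112 cells. The regulator SREBF1 had -3.56, 0.46 and -1.48. Neither is a member. Ratios over all loci also went with GC content in opposite directions between lines, as given below. The part of GC content in these values was not tested.

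Among other metabolic members was ACAT2, an acetoacetyl-CoA thiolase, which went from 26.7 to 6.45 FPKM (RT4), 53.0 to 35.6 (RT112) and 44.2 to 17.2 (SW780). HPGD, the prostaglandin dehydrogenase, went from 86.4 to 49.7 FPKM (RT4), 41.4 to 14 (RT112) and 19.4 to 12.7 (SW780). Both overlapped between treatments. ACER2, a ceramidase, at a locus shared with AL158206.1, had -0.63, -1.57 and -1.24, and PLA2G4F, a phospholipase, -2.82, -0.78 and -1.37. The glycolytic enzyme GPI shares a locus with PDCD2L, which went from 85.3 to 51.6 FPKM (RT4), 74.9 to 38.2 (RT112) and 107 to 49.5 (SW780) without overlap. The locus of the nucleoside diphosphate kinases NME1 and NME2 had -0.95, -0.64 and -0.53, again without overlap. XDH, which makes urate, had -0.90, -1.61 and -0.79. ACOT1 was near 0 in RT112 cells, at 0.0124 FPKM with DMSO and 0.006 with quisinostat, so its ratio there rests on almost no RNA. MTHFS, of folate metabolism, had -0.82, -0.52 and -0.62, PLPP5, a lipid phosphatase, -2.32, -0.52 and -0.58, and PGAP1, of GPI anchor maturation, -0.68, -0.55 and -0.63. CASD1, a sialic acid O-acetyltransferase, had -0.96, -1.5 and -0.72 and PM20D2, a peptidase, -0.63, -0.75 and -0.95.

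**Figure D3:**
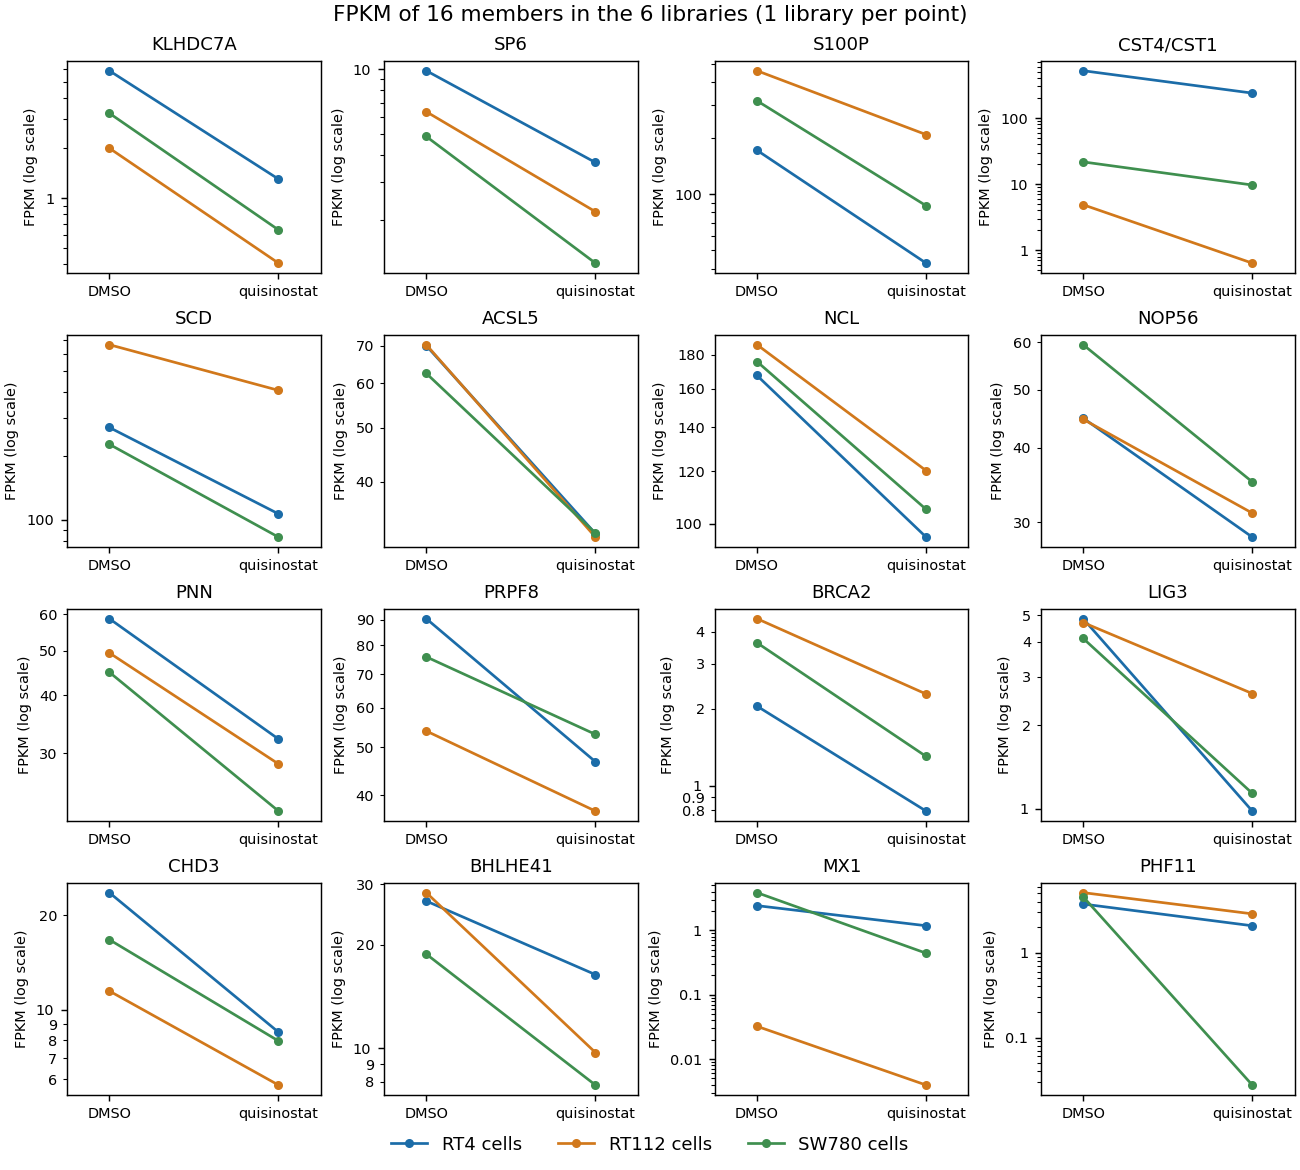
FPKM on a log scale (vertical axis, each panel with its own range) of 16 members with DMSO and with quisinostat, 1 point per library and a line joining the 2 libraries of a cell line. Every line goes down, ACSL5 is at 31.9 to 32.4 FPKM with quisinostat in all 3 lines, and PHF11 drops to 0.0276 FPKM in SW780 cells only.

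Further members of the epithelial, secretory, junction and cytoskeleton group act in cell shape, adhesion or the Golgi. SHROOM1 and EPB41L1, which link membranes to the cytoskeleton, had -2.16, -0.55 and -1.83 (SHROOM1) and -1.87, -0.54 and -1.92 (EPB41L1), close to the limit in RT112 cells only. CEACAM6, a surface adhesion protein, went from 0.0493 to 0.0259 FPKM (RT4), 21.1 to 9.50 (RT112) and 89.5 to 38.9 (SW780), so it was nearly absent from RT4 cells, where the ratio rests on little RNA. TRIP11, a Golgi protein, had -2.42, -0.99 and -2.20 at levels of 0.0719 to 1.30 FPKM, and MPRIP, a myosin phosphatase partner, had -0.63, -0.62 and -0.54. On the squamous and urothelial differentiation list, 2 of 26 loci were members (7.69%), SPRR3 and DLK2, where 1.72% of all loci met the limit. DLK2, a Notch-related membrane protein, had -2.88, -1.80 and -0.71. It was at 0.119 to 0.872 FPKM in all 6 libraries, so its ratios rest on little RNA. The median ratio of that list was -1.02 (RT4), 0.21 (RT112) and -0.53 (SW780).

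The 18 members of signalling and antiviral defence had medians of -0.87 (RT4), -0.73 (RT112) and -0.81 (SW780). IKBKB, the kinase that releases NF-kappaB, went from 3.32 to 0.367 FPKM (RT4), 2.21 to 1.22 (RT112) and 5.45 to 1.84 (SW780). IL27RA, a cytokine receptor chain, had -0.63, -0.61 and -0.81. IKBKB and IL27RA were the members among 26 loci of the NF-kappaB and cytokine receptor list (7.69%). Of all loci, 1.72% met the limit. PTPN2, a phosphatase that restrains JAK and STAT signalling, went from 8.38 to 5.68 FPKM (RT4), 10.3 to 7.04 (RT112) and 9.83 to 6.76 (SW780). The treatments were apart, and the ratios span 0.02, the narrowest of all members with a mean FPKM of at least 1. PHLPP1, a phosphatase of AKT, had -0.89, -0.64 and -0.64. DENND2D, a Rab exchange factor, had -0.88, -1.93 and -1.67, and ARHGEF6 had -1.84, -0.76 and -1.15. DTX4, a ubiquitin ligase tied to Notch, was the member among 22 Notch and Wnt loci (4.55%). MAFF was the member among the 23 loci of the ERK list, where ELK4/SLC45A3 met the limit too and was left out for its second name. Counting both, 8.7% of that list met the limit. CAB39L, a scaffold of the LKB1 kinase, had -0.55, -0.70 and -0.79, COMMD10 -0.56, -0.76 and -0.61, CMTM7 -0.97, -0.61 and -0.81 and the secreted glycoprotein LRG1 -1.12, -0.65 and -1.0.

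MX1, a GTPase induced by interferon that blocks viruses, went from 2.42 to 1.18 FPKM (RT4), 0.0323 to 0.00395 (RT112) and 3.85 to 0.441 (SW780). Its ratio in RT112 cells rests on almost no RNA. OAS2, which makes the 2',5'-oligoadenylate that activates RNase L, went from 12.1 to 6.84 FPKM (RT4), 1.91 to 0.764 (RT112) and 2.76 to 1.23 (SW780). MX1 and OAS2 overlapped between treatments. Related genes were not members. OASL had 1.03, 0.82 and 1.14 and MX2 had 0.83, 1.63 and -0.62, while OAS1 and OAS3 had 0.90, -1.37 and -0.55 (OAS1) and 0.30, -0.47 and -0.98 (OAS3). PARP4 and APOBEC3C, a cytidine deaminase of antiviral defence, had -0.91, -0.59 and -0.58 (PARP4) and -0.69, -0.62 and -1.07 (APOBEC3C). PHF11, a zinc finger protein, went from 3.75 to 2.08 FPKM (RT4), 5.11 to 2.87 (RT112) and 4.57 to 0.0276 (SW780). In SW780 cells its level was 0.604% of DMSO, the deepest ratio of any member, while RT4 and RT112 cells kept 55.4 and 56.2%, and the treatments did not overlap.

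Of 127 members with an entry in GENCODE 29, 10 are processed pseudogenes (7.87%), against 133 of 8471 loci (1.57%), and 108 are protein coding (85.0%, against 94.9%). The 8471 loci keep the names that the rule leaves out of the members, such as RPL and RPS, so the sets are not fully alike. A locus with several names has the type of its first name, so AC068768.1/CDK2AP1 counts as antisense. Processed pseudogenes are intronless copies of an mRNA in the genome, and short reads can fit parent and copy equally. The members include 4 copies of EEF1A1, the elongation factor that brings aminoacyl-tRNA to the ribosome. EEF1A1P5 went from 487 to 279 FPKM (RT4), 512 to 321 (RT112) and 287 to 185 (SW780), the highest mean DMSO level of all members. EEF1A1P6 went from 128 to 71.1 FPKM (RT4), 179 to 102 (RT112) and 89.5 to 54.9 (SW780). For both, the SW780 DMSO level was below the RT112 quisinostat level. EEF1A1P11 and EEF1A1P13 had ratios of -0.96, -0.89 and -0.75 (EEF1A1P11) and -0.62, -0.65 and -0.98 (EEF1A1P13). EEF1A1 itself went from 2149.6 to 1367 FPKM (RT4), 1612 to 1186 (RT112) and 981 to 633 (SW780) and missed the limit in RT112 cells, with -0.65, -0.44 and -0.63.

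The copies are close to the parent in sequence. In local alignment with the longest protein-coding EEF1A1 transcript of GENCODE 29, EEF1A1P5 matched 1385 of 1389 bases (99.7%) and EEF1A1P6 matched 1377 of 1384 (99.5%). The match was 98.1% for EEF1A1P13 and 97.3% for EEF1A1P11. The 60 bases at positions 661 to 720 of the EEF1A1 coding sequence, counted from 1 at the start codon, are shown because reads from this stretch differ from EEF1A1 by 1 base at most, with bases that differ from EEF1A1 in capitals.

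EEF1A1: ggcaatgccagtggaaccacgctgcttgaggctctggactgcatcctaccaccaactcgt
EEF1A1P5: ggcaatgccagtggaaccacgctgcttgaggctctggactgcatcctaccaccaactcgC
EEF1A1P6: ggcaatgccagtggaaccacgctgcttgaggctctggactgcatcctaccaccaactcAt
EEF1A1P11: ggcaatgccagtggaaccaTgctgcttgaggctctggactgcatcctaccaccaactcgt
EEF1A1P13: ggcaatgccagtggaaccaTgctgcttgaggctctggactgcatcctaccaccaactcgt

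In this window each copy differs from the parent at 1 base, and EEF1A1P11 and EEF1A1P13 are identical. How much of the RNA assigned to a copy came from EEF1A1 was not tested. The same holds for 3 copies of PPIA (cyclophilin A), PPIAP22, PPIAP29 and PPIAP31, which match it at 97.8 to 99.6% of aligned bases. Their ratios were -0.83, -0.54 and -0.99 (PPIAP22), -1.35, -0.95 and -0.69 (PPIAP29) and -1.33, -0.67 and -0.93 (PPIAP31), and PPIA had -0.67, -0.42 and -0.70. NPM1P6 had -0.51, -0.82 and -0.75 and its parent NPM1, a nucleolar chaperone, -0.32, -0.80 and -0.58. BCLAF1P2, with 99.2% identity to the member BCLAF1, had -1.23, -0.76 and -0.79. In each family the parent also had negative ratios in all 3 lines, and EEF1A1, PPIA and NPM1 each missed the limit in 1 line. Other copies were not members: NPM1P27 had 0.15, -0.86 and -0.97, and the locus C5orf34/EEF1A1P19 had -0.70, -1.0 and -0.28.

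**Figure D4:**
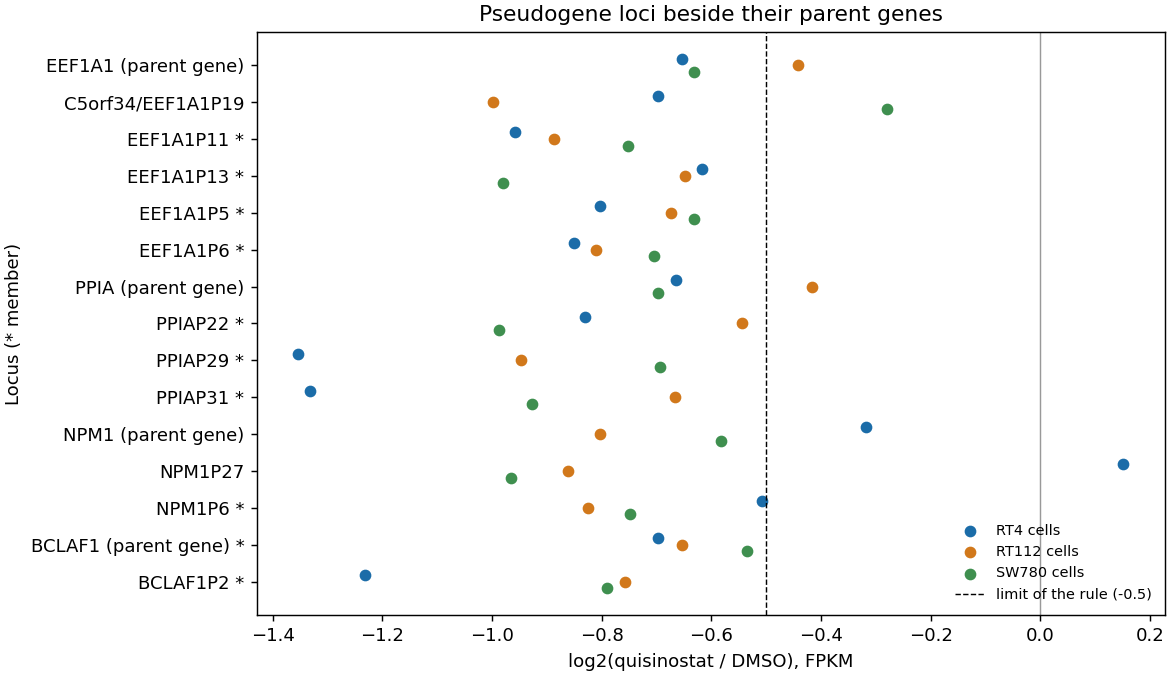
Log2 ratio of quisinostat over DMSO (FPKM, horizontal axis) of pseudogene loci and their parent genes, 1 point per cell line, with members starred and the limit of -0.5 dashed. EEF1A1 and PPIA lie to the right of the limit in RT112 cells only, at -0.44 and -0.42, and NPM1 in RT4 cells only, at -0.32.

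The other members of the pseudogene and noncoding group have no parent shown here. PP7080, a noncoding transcript, had -2.03, -0.81 and -1.29, and FER1L4, a transcribed pseudogene, -3.40, -0.73 and -2.95. FER1L4 went from 11.2 to 1.06 FPKM (RT4), 2.41 to 1.46 (RT112) and 1.85 to 0.240 (SW780). AC022400.7, AL109614.1, AL354798.1, AL589880.1 and AL662797.3 complete this group, with DMSO levels between 0.494 and 5.34 FPKM. AL662797.3 had no entry in GENCODE 29. Of 8 members with no role stated, FAM133B had the widest range and went from 5.59 to 3.37 FPKM (RT4), 6.98 to 1.85 (RT112) and 5.30 to 0.482 (SW780), without overlap. CFAP97 and TTC27 had -0.82, -0.59 and -0.61 (CFAP97) and -0.55, -0.82 and -0.59 (TTC27). FRY had -0.89, -0.95 and -2.13, TMCO6 -0.69, -1.08 and -1.5 and ANKRD65 -0.77, -0.73 and -2.02, all deepest in SW780 cells.

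The evenness of the members differed widely. The median range of the 3 ratios was 0.50, beside 0.91 over all loci, and a rule that bounds all ratios from above narrows it. Among members with a mean FPKM of at least 1, PTPN2, CENPN, E2F8, SON/MIR6501 and MPRIP had the narrowest ranges, 0.02 to 0.09, and PHF11, FAM133B, FER1L4, CDH26 and NSUN4 the widest, 2.32 to 6.54. The deepest ratio was in SW780 cells for PHF11, FAM133B and CDH26 and in RT4 cells for FER1L4 and NSUN4. With 1 library per line and treatment, whether any gene differs between lines was not tested.

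Values on both sides of the limit were close. Just inside it were LMNB1, NPM1P6, KIAA0368, DTX4 and ASH1L/YY1AP1, with weakest ratios of -0.508 to -0.501. KIAA0368 (ECPAS, a proteasome adaptor) had -1.08, -0.54 and -0.51. Just outside were LSM12, GTF3A, CDC25A, AC015922.4 and MYC, with weakest ratios of -0.499 to -0.494. MYC, the transcription factor after which the list above is named, went from 20.4 to 3.09 FPKM (RT4), 51.1 to 28.8 (RT112) and 20.9 to 14.8 (SW780). GTF3A, the 5S RNA factor of RNA polymerase III, had -0.72, -0.50 and -0.53, and CDC25A, a cell cycle phosphatase, -0.49, -0.84 and -0.81.

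The members were compared with other loci on level and form. Their median DMSO level was 8.77 (RT4), 8.99 (RT112) and 7.55 FPKM (SW780), beside 8.50, 8.28 and 8.56 for all loci. The median GC content of their transcripts was 47.7% (48.1% for all loci) and the median length 3116 bases (3159). Ratios over all 8471 loci with a GC value went with GC content in opposite directions, with Spearman correlations across loci of -0.48 (RT4), 0.44 (RT112) and -0.22 (SW780). The loci of a line share its pair of libraries and are not independent. Across 5 bins of equal size from low to high GC content, members were 1.36, 1.65, 2.24, 1.36 and 0.885% of the loci. In the highest bin the median ratio of all loci was -0.82 (RT4), 0.68 (RT112) and -0.25 (SW780). In the lowest bin it was 0.50, -0.18 and 0.17. The part of this pattern in the ratios of single genes and the medians of the gene lists was not tested. After the ratios had been corrected for GC with a lowess curve, 79 of the 128 were still under -0.5 in all 3 lines and 54 other loci came in.

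By role, of the splicing and mRNA turnover members 4 of 13 stayed under the limit, and of the nucleolus and polymerase members 9 of 16. The epithelial group kept 10 of 13, the lipid and small-molecule group 13 of 17 and the pseudogene and noncoding group 13 of 17. The chromatin group kept 8 of 14, the DNA repair and mitosis group 8 of 12 and the signalling group 10 of 18. Under all 5 scaling and pseudocount alternatives together, 4 of the 13 splicing, 4 of the 13 epithelial, 6 of the 16 nucleolus and polymerase, 9 of the 17 lipid and 9 of the 17 pseudogene and noncoding members stayed under it. So did 8 of the 14 chromatin, 6 of the 12 DNA repair and mitosis and 5 of the 18 signalling members. Of the 12 members with the lowest weakest ratio, PRSS22 went to a corrected -0.06 and CST4/CST1 to -0.45, past the limit, and SP6 to -0.53. KLHDC7A had -1.56, and the other 8 lay between -1.32 (AP1M1) and -0.88 (MX1). ANKRD65, with 66.2% GC, turned to 0.66, and SNRNP25 and IL27RA, at 0.00672 and 0.00589, were no longer lower in all lines. The cause of the GC relation was not tested. With a pseudocount of 1 FPKM instead, the weakest ratio was -0.04 for MX1 and -0.22 for CDH26. Of the 12 members with the lowest weakest ratio, 8 stayed under the limit in all 5 alternatives.

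**Figure D5:**
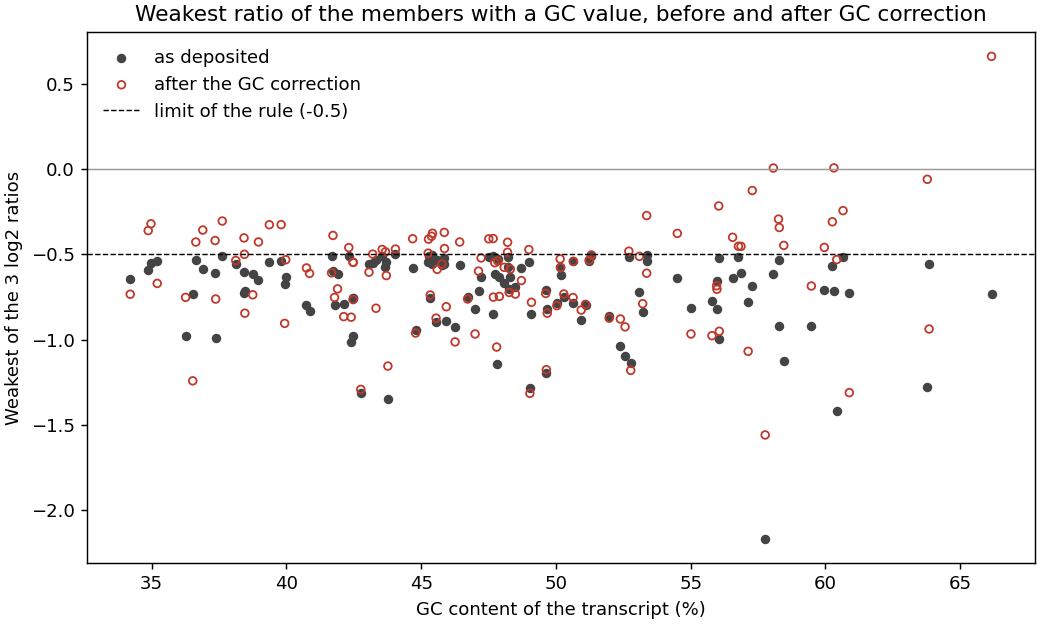
Weakest of the 3 log2 ratios (vertical axis) of the 127 members with a GC value against the GC content of the transcript in percent (horizontal axis), as deposited (filled) and after the GC correction (open). As deposited all points are under the dashed limit, and after correction 79 are, with 3 open points above 0, at a GC content of 58.1% and more.

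Members lay on every autosome and on X. On chromosome 13, 7 of 144 loci were members (4.86%), and on chromosome 21 5 of 97 (5.15%). On X and the other autosomes the share was 0.621 to 2.82%. Chromosomes 13 and 21 were picked after the shares were seen. The members on chromosome 13 are PARP4, AL354798.1, PAN3, FRY, BRCA2, CAB39L and PHF11. Another member lay within 100 kb of 8 members (6.30%), against 3.22% of all loci. Besides the cystatins, these are FRY and BRCA2, 16.4 kb apart and both on the plus strand, CAB39L and PHF11, 51.5 kb apart and head to head, and POLR3K and SNRNP25.

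POLR3K (chromosome 16, 46407-53628, minus strand) and SNRNP25 (53010-57669, plus strand) are transcribed away from each other. These GENCODE 29 spans overlap, with starts 618 bases apart, while the RefSeq starts are 220 bases apart without overlap, so the annotations disagree on the starts. SNRNP25 went from 9.03 to 4.95 FPKM (RT4), 15.5 to 9.47 (RT112) and 20.2 to 10.8 (SW780). Beside the values of POLR3K given above, the pair had ratios of -1.07 and -0.87 in RT4, -0.66 and -0.71 in RT112 and -0.55 and -0.91 in SW780 cells. Between the RefSeq starts, and within the GENCODE span of SNRNP25, there are 3 CCAAT boxes, shown in capitals with 12 bases on each side because both neighbours are members (plus strand of GRCh38.p14, at chr16:53655-53683, chr16:53690-53718 and chr16:53748-53776). ATTGG is the same box on the other strand.

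CCAAT box 1: cctcgagctcacATTGGtcctggcagcct
CCAAT box 2: cacaccaaccaaCCAATagacagggcgat
CCAAT box 3: ctcgcacttgtcATTGGtcactgcagccg

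RefSeq promoter windows (250 bases before to 50 after the start, GRCh38.p14) were matched for 89 member names and 6570 names of all loci. Letters were searched on both strands, and different motifs may overlap. A CCAAT box was in 32.6% of member promoters, 37.6% of those of all loci and 35.7% of all 27305 promoters of the table. The GC box GGGCGG was in 62.9%, 72.3% and 44.6%. The E-box CACGTG, which MYC and clock factors bind, was in 12 member promoters (13.5%, against 10.5% and 7.43%): those of PRMT3, BHLHE41, CBX5, BRCA2, LIG3, NME1, CEACAM6, MAFF, HPGD, GTF3C6, PUS7 and ANP32B. An E2F motif, TTTGGCGC, was in 3 (SASS6, NUCKS1 and ACACA), or 3.37%, against 1.28% and 0.659%. The motifs of ETS (CCGGAAGT), CRE (TGACGTCA), NRF1 (GCATGCGC), YY1 (AAGATGGC), ZBTB33 (TCGCGAGA) and ZNF143 and the E2F motif TTTCCCGC were in 0 to 7 member promoters each. The E2F motif TTTCCCGC was in 3.37% of member promoters, against 2.97% of those of all loci. These shares were 7.87 against 9.7% for ETS, 2.25 against 3.52% for CRE and 3.37 against 5.84% for NRF1. They were 5.62 against 6.36% for YY1, 2.25 against 2.72% for ZBTB33 and 0 against 0.609% for ZNF143. A match is only a run of letters in this window.

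The HDAC inhibitor response list, genes known to go up, gave no member among 5 loci measured. Of all loci, 1.72% met the limit, so 5 loci are too few to read a lack of members. GSN (gelsolin) had 0.93, 2.79 and 1.5 and CDKN1A, the cell cycle inhibitor p21, 0.12, 1.36 and 0.52. CLU had 0.09, 2.62 and -0.32, H1F0 1.08, 0.45 and -0.04 and TUBB3, at a locus shared with TCF25, -1.90, 0.54 and -0.61. GSN and CDKN1A were above 0 in all 3 lines, while the members are below 0 by selection. GSN was at 0.130 FPKM with DMSO and 0.367 with quisinostat in SW780 cells, so its ratio there rests on little RNA. The CDKN1A ratio in RT4 cells was close to the median of all loci, 0.07.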

How the data were processed

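RNA of RT4, RT112 and SW780 cells treated with DMSO or quisinostat was sequenced from polyadenylated RNA, with 1 library per line and treatment and 6 libraries in all. The submitters' processing notes name CASAVA 1.8.2, Trimmomatic 0.36, HISAT2 2.2.1, SAMtools 1.15.1 and StringTie 2.2.1 with the GRCh38 build, and the study's methods name Ballgown. The annotation release is not given in the sources used here. The deposited values are FPKM per gene, assembled and normalized by the authors. Read counts were not used here, so the depth and its counting error are unknown.

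Rows that share a gene identifier were taken as 1 locus. Ratios of quisinostat over DMSO were taken as log2 of the plain ratio. The samples were grouped by their labels. With 1 library per group no test was run, and members are described beside all 8525 named loci above 0. Genes named in the text include the 12 lowest by weakest ratio, the 12 highest by DMSO level, the 5 on each side of the limit, the 5 widest and 5 narrowest in range among members with a mean FPKM of at least 1, members of the gene lists and members at adjacent loci. Other members were named after their values were seen. The values of 1 member are not reported here. The members and lists were chosen with earlier results of these data known.

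Gene type, position, length and GC content came from GENCODE 29, and promoter windows from RefSeq (GRCh38.p14). Alternatives were pseudocounts, filters on level, other limits, centring, rescaling, quantile normalization, a lowess correction for GC content (span 0.3) and leaving out each line. Python 3.11.15, pandas 2.3.3, NumPy 2.4.6, statsmodels 0.14.6 and matplotlib 3.10.9 were used, and the steps were checked on simulated data.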

Additional observations from a re-analysis of the deposited data

How the results depend on the processing

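The number of loci that met the rule, 128, depended on its settings. It was 74 with a pseudocount of 1 FPKM, 73 with a mean FPKM of at least 5, 262 after quantile normalization, 366 at a limit of -0.3 and 13 at a limit of -1. Leaving out a line, which leaves fewer ratios to satisfy, gave 304 without RT4, 881 without RT112 and 266 without SW780 cells. With centring, rescaling or GC correction it was 167, 109 and 133. Of the 128 members, 79 stayed under -0.5 after GC correction, 74 with the pseudocount of 1 FPKM, 107 after rescaling and 124 after quantile normalization, and 54 did under these 4 alternatives and centring. The median ratio in RT4 cells moved to -0.85 with rescaling, -1.02 with quantile normalization, -1.06 with GC correction and -0.77 with the pseudocount. In RT112 cells it was -1.02 with quantile normalization and -0.64 with the pseudocount, and in SW780 cells -1.02 and -0.71. After GC correction the weakest ratio turned above 0 for ANKRD65 (0.66), SNRNP25 (0.00672) and IL27RA (0.00589). The cause of these shifts was not tested. Quantile normalization moved the median of all loci by -0.10 (RT4), -0.14 (RT112) and -0.08 (SW780). A fit over the 3 lines with the line as a block was not run, since the members were selected on these same ratios. Low FPKM values rest on an unknown number of reads.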
